A study of Oryctolagus cuniculus with 30 samples.

Results

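A set of 10 genes of the myogenic programme and of muscle regeneration was followed in rabbit vocal fold tissue: PAX7, MYF5, MYOD1, MYOG, MYF6, MEF2C, MSTN, CHRNA1, CHRND and MUSK. They were taken by symbol, and all 10 were found among the 31346 genes of the count tables. RNA was sequenced from dissected mucosa of 15 New Zealand white rabbits, 3 per group, with the left and right fold of each animal as separate libraries (30 in all). Control animals had neither injury nor injection. The 4 other groups had the mucosa of both folds stripped superficially. The animals called injury only received nothing further. The Col1, VFLP (man) and VFLP (au) animals received 20 µL into each fold 7 days after the injury, of collagen type I or of either of 2 hydrogels that the study's title describes as derived from vocal fold lamina propria. Tissue was taken 28 days after treatment. The labels do not say from which day this was counted in the injury only animals, and give no time for the controls, no age and no sex. Counts of both folds were summed for each animal, giving n = 3 animals per group. Fits with a term for batch, such as injury only against control, kept the left and right fold of injury only animal 1 apart. Their log2 differences therefore do not rest on the summed level of that animal. Levels are given as CPM, counts per M (mega) reads after TMM scaling, a correction for library composition.

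Adult skeletal muscle keeps a reserve of satellite cells, marked by the transcription factor PAX7, which are activated by damage. Activated cells express MYF5 and MYOD1, then MYOG as they stop dividing and fuse, and MYF6 and MEF2C are expressed in differentiated fibres. Acetylcholine receptor subunits and the kinase MUSK are concentrated beneath the nerve ending in innervated fibres, and their genes are known to be expressed along the whole fibre in embryonic, regenerating and denervated muscle. The vocal fold is a layered structure in which mucosa, epithelium over lamina propria, covers the thyroarytenoid muscle.

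The tissue labelled mucosa contained muscle RNA in every library. A list of 32 genes of mature skeletal muscle fibres, such as actin, myosin and troponin genes, had 26 members in the tables. Their summed level was 52300 to 123000 CPM in control animals, 9750 to 23100 after injury alone, 3140 to 9560 with Col1, 701 to 4560 with VFLP (man) and 6480 to 15100 with VFLP (au). A list of 8 heart genes had 7 members in the tables, of which NPPA and NPPB had 0 reads. It summed to 311 to 1400 CPM in controls, 11.9 to 54.2 after injury alone and 1.96 to 3.53 with VFLP (man), and 1 of its 2 tested genes, MYH6 (named after its values were seen), was called lower after injury alone. The level of fibre RNA therefore moved with the groups in which the myogenic genes were compared, and in bulk tissue fewer cells of a type and less RNA per cell cannot be told apart. Summed marker lists of other cells moved too. Smooth muscle markers were at 1820 to 4150 CPM in controls and 109 to 364 in VFLP (man). Their list includes DES, the gene most like MYOD1 over the animals (r = 0.971), so this sum can hold fibre RNA. In the same 2 groups fibroblast markers were at 1690 to 3090 and 387 to 637 CPM, and epithelial markers at 5940 to 11600 and 10900 to 17900. Endothelial markers were at 240 to 928 CPM in controls, 224 to 430 after injury alone, 148 to 177 with Col1, 80.8 to 112 with VFLP (man) and 94.5 to 183 with VFLP (au). The part of these cells in the levels of the myogenic genes, MEF2C among them, was not tested. Depth was 14.2 to 31.9 M reads counted to genes per library (median 22.7). All 6 control and 5 injury only libraries were of batch C. The right fold of injury only animal 1 and all 18 libraries of injected animals were of batch D.

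PAX7, the satellite cell factor, was at 3.45, 6.67 and 5.45 CPM in the control animals (167, 146 and 191 reads). After injury alone it was at 1.76, 1.44 and 2.37 CPM. It was at 0.757, 0.625 and 0.243 CPM with Col1, 0.225, 0.602 and 0.367 with VFLP (man), and 1.21, 0.464 and 1.00 with VFLP (au). Controls were highest, injury only animals came next, and neither overlapped any other group, while the 3 injected groups overlapped among themselves. The difference between injury only and control was −1.37 (log2, SE 0.496), with an adjusted p of 0.0657 in edgeR's quasi-likelihood test with Benjamini-Hochberg adjustment over all genes, which is the test behind every adjusted p here unless another is named. Each injected group passed the threshold of 0.05 against control, with log2 differences of −3.25 (Col1), −3.69 (VFLP (man)) and −2.54 (VFLP (au)).

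MYF5, a factor of the activated myoblast, was at 2.38, 6.53 and 3.14 CPM in controls. It was at 0.465, 1.70 and 1.36 CPM after injury alone. Injected animals had 0.170, 0.265 and 0.162 CPM with Col1, 0.173, 1.19 and 0.495 with VFLP (man), and 0.836, 0.297 and 0.879 with VFLP (au). Every control animal was above every injured animal, and the injured groups next to each other in order of mean overlapped. MYOD1, the factor that commits cells to the muscle lineage, was less clearly separated. Its levels were 3.78, 11.4 and 7.65 CPM in controls and 1.51, 4.22 and 4.39 after injury alone, so these groups overlapped (log2 difference −1.02, SE 0.847, adjusted p = 0.415). They were 0.53, 1.39 and 0.101 CPM with Col1, 0.225, 3.30 and 2.47 with VFLP (man), and 2.26, 1.61 and 1.73 with VFLP (au). MYOD1 was lower than in control with Col1 (adjusted p = 0.016), and did not pass with VFLP (man) (adjusted p = 0.11) or VFLP (au) (adjusted p = 0.113).

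MYOG, which drives terminal differentiation, was at 15.7, 39.0 and 24.0 CPM in controls. It was at 2.99, 11.4 and 9.44 CPM after injury alone, 2.35, 2.91 and 1.23 with Col1, 0.346, 3.91 and 2.90 with VFLP (man), and 6.02, 1.87 and 5.91 with VFLP (au). No control animal overlapped an injured one. Against control the log2 difference was −1.58 (SE 0.71, adjusted p = 0.126) for injury only, and MYOG fell in the 3 injected groups, with log2 differences of −3.60, −3.45 and −2.51 in the order Col1, VFLP (man), VFLP (au).

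MYF6, the member of the MYF5 family that mature fibres express, was at 136, 306 and 237 CPM in controls and at 26.9, 50.9 and 45.7 after injury alone. With Col1 it was at 21.9, 25.3 and 10.8 CPM, with VFLP (man) at 2.01, 14.2 and 8.49, and with VFLP (au) at 39.9, 19.1 and 37.5. All controls stood above all injured animals, and VFLP (man) animal 1 was the lowest of the 15. MYF6 fell by 2.23 on the log2 scale (SE 0.572, adjusted p = 0.0174) after injury alone. MYF6 lies next to MYF5 in the RefSeq annotation.

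MEF2C, a transcription factor of muscle fibres that endothelial and other cells also express, was at 190, 424 and 228 CPM in controls. It was at 40.7, 87.6 and 102 CPM after injury alone, 39.8, 70.1 and 20.5 with Col1, 11.9, 57.8 and 20.0 with VFLP (man), and 77.2, 44.7 and 74.5 with VFLP (au). Controls did not overlap the injured groups, and the injured groups overlapped each other in order of mean. MEF2C fell by 1.72 on the log2 scale (SE 0.567, adjusted p = 0.0477) after injury alone.

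MSTN, myostatin, the secreted inhibitor of muscle growth, had the largest log2 difference of the 10 genes in each of the 4 injured groups against control. It was at 58.3, 108 and 95.2 CPM in controls, at 5.02, 11.1 and 17.3 after injury alone, and at 4.22, 3.82 and 2.00 with Col1. VFLP (man) animals had 0.259, 1.44 and 0.255 CPM and VFLP (au) animals 6.12, 2.43 and 12.8. VFLP (man) lay below every other group without overlap. MSTN was lower than in control by a log2 difference of −2.83 (SE 0.702, adjusted p = 0.0151) after injury alone and of −7.05 (SE 0.91, adjusted p = 0.00015) with VFLP (man).

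Of the genes of the neuromuscular junction, CHRNA1 had the same order of group means as MYOD1, while CHRND and MUSK had their highest mean after injury alone. CHRNA1, the receptor's alpha subunit, was at 8.35, 16.2 and 16.4 CPM in controls and 3.28, 13.2 and 11.9 after injury alone. With Col1 it was at 2.33, 0.794 and 0.567 CPM, with VFLP (man) at 0.778, 9.03 and 6.65, and with VFLP (au) at 4.52, 4.08 and 2.12. Injury only animals 2 and 3 lay within the control range, and animal 1 below it.

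CHRND, the delta subunit, was at 3.06, 7.63 and 8.91 CPM in controls. It was at 1.71, 12.5 and 14.4 CPM after injury alone and at 1.04, 11 and 10.6 with VFLP (man), with animals 2 and 3 of both groups above all controls and animal 1 of both below them. Col1 animals had 1.63, 0.77 and 0.121 CPM, and VFLP (au) animals 5.25, 3.15 and 2.10. The difference between injury only and control was 0.62 (log2, SE 0.904, adjusted p = 0.663), smaller than the spread between animals.

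MUSK, the kinase that gathers receptors under the nerve ending, was at 1.20, 1.46 and 2.00 CPM in controls. Animals 2 and 3 again stood above the controls after injury alone (0.717, 3.96 and 3.94 CPM) and with VFLP (man) (0.0692, 3.78 and 2.07). VFLP (au) animals had 0.941, 1.19 and 0.805 CPM, just below the controls. Col1 animals had 0.246, 0.24 and 0 CPM. Animal 3 of Col1 had 0 reads of 46.5 M gene reads, which allows a level of up to 0.0645 CPM before TMM scaling (counting error only).

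**Figure D1:**
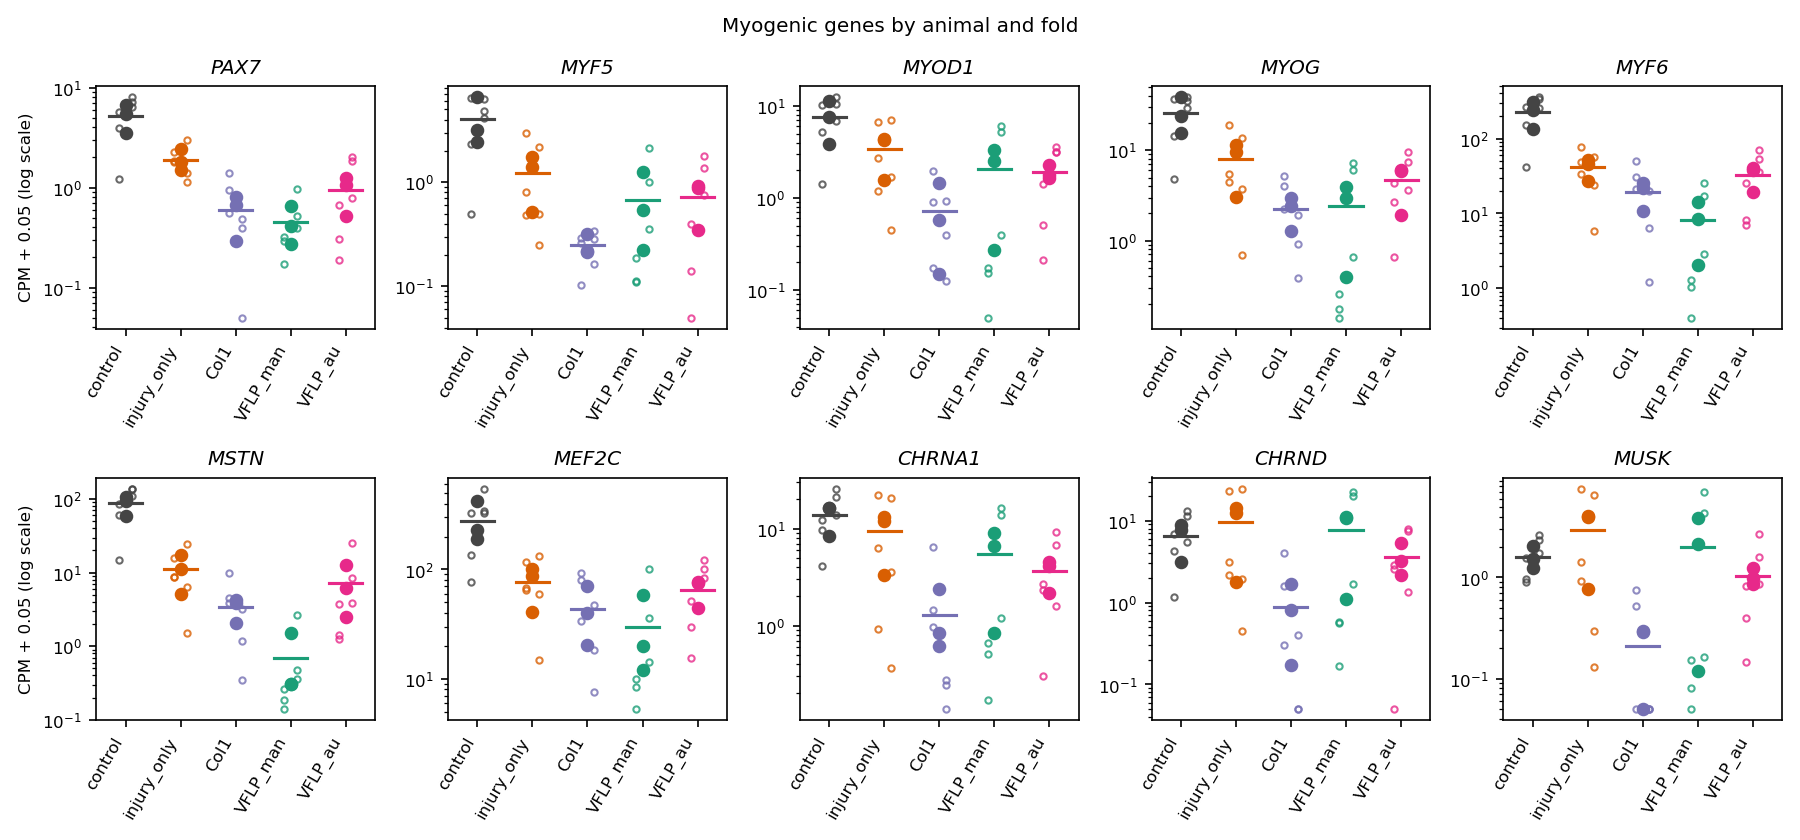
CPM plus 0.05 on a log scale for the 10 genes in the 5 groups. Filled points are animals, small open points single folds (left fold to the left), bars group means. PAX7 to MEF2C are highest in control, whereas CHRND and MUSK in 2 injury only and 2 VFLP (man) animals lie above the controls.

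Stripping alone was compared with no injury in a fit with a batch term. Of the 10 genes, 3 passed and all were lower: MSTN, MYF6 and MEF2C. Of all 17815 genes tested, 13.7% were called lower. The members' median log2 difference was −1.48 and that of all genes 0.02. Of the mature fibre list, 16 of 26 were called lower, with a median of −2.05. The count changed when 1 animal was left out, as did the calls over all genes, which were 3933 of 17815 in the main fit. The count was 0 without control animal 2 (1733 of 18180 genes called) or injury only animal 1 (1981 of 18068). It was 1 without injury only animal 2 (MYF6, adjusted p = 0.0493, 2924 of 17771 genes) or animal 3 (MSTN, 0.0317, 2779 of 17788). It was 2 without control animal 3 (2803 of 18192). It was 5 with DESeq2, which added PAX7 and MYF5 and called 30.8% of all genes. It was 2, MSTN and MYF6, without the control library of lowest depth (3623 of 17816 genes). It was 0 in left folds alone, where 0% of all genes were called, in right folds alone, where 26.2% were, and with the fibre level as a covariate, where 5.51% were. With that covariate 0 members and 0% of genes were called for each injected group against control.

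Against control, Col1 animals had 9 of 10 genes lower, all but MUSK (adjusted p = 0.0564); the share of all genes called lower was 18.6%. MSTN was 26-fold lower, MYF5 20.0-fold and CHRNA1 11.1-fold. In the left folds alone 0 members and 0.108% of all genes were called. Without control animal 2, CHRND and MYOD1 were not called, where 3658 of 18141 genes were. VFLP (man) had 6 lower, PAX7, MYF5, MYOG, MYF6, MSTN and MEF2C, where 20.5% of all genes were. CHRND (log2 difference 0.21, SE 0.955, adjusted p = 0.879) and MUSK (0.35, SE 1.06, adjusted p = 0.818) were the only members above 0 there. MYF5 was not called without control animal 2, where 4438 of 18141 genes were. VFLP (au) had the same 6 called lower, where 16.7% of all genes were, with MSTN 12.3-fold and MEF2C 4.28-fold lower. For VFLP (au), 3 remained called (PAX7, MYF6 and MSTN) without control animal 2 (2528 of 18141 genes called) or without VFLP (au) animal 2 (3040 of 18120). There were 4 without VFLP (au) animal 1 (3568 of 18183 genes) or 3 (3798 of 18175). The main fit called 4884 of 17770 genes there.

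The injected groups shared no batch with the controls. With a batch term, which rests on the single injury only library of batch D, 0 members were called in these 3 comparisons, and of all genes 0% with Col1, 0.163% with VFLP (man) and 0% with VFLP (au). MYOG had values above 0 in that fit. Against control, batch and injection cannot be told apart without that library, and these 3 comparisons share their control animals.

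Against injury alone, VFLP (man) had 1 of 10 members lower, MSTN, 16.8-fold (log2 difference −4.07, SE 0.801, adjusted p = 0.043), where 0.99% of all genes were called lower. PAX7 (−2.21, SE 0.514, adjusted p = 0.0591) and MYF6 (−2.32, SE 0.599, adjusted p = 0.0835) missed the threshold. The 6 fibre list genes called of 26 were lower too, as were SMYD1, SRL and SLN, which encode a fibre methyltransferase, a reticulum protein and the calcium pump regulator sarcolipin (log2 differences −3.58, −3.23 and −3.47). Each of these 3 was called in 2 of the 6 fits without 1 animal, with adjusted p up to 0.175 without VFLP (man) animal 3, and not with the fibre level as a covariate (adjusted p 0.665 to 0.793); SMYD1 was at 0.24 with a batch term. MSTN was not called without injury only animal 2 (adjusted p = 0.151) or 3 (0.102) or without VFLP (man) animal 1 or 3 (0.175 each). Of all genes, 0, 0, 0 and 1 were called in those fits. MSTN was called in the left folds alone (adjusted p = 0.0064), where 711 of 16601 genes were. It was not called in the right folds alone (0.88), where 0 of 16576 genes were. Nor was it called with a batch term (0.887, 0 of 17815 genes) or the replicate number as block (0.0519, 168 of 17770). Without the injury only library of batch D, MSTN, MYF6 and PAX7 were called, where 463 of 17748 genes were.

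Col1 against injury alone had 0 of 10 members and 0% of genes called, with all 10 members below 0 (median −2.10). The fibre list had a median of −1.33 there and all genes 0.005. At an unadjusted p under 0.05 there were 8 members and 14.2% of all genes, and DESeq2 called 2.08% of all genes and 5 members: PAX7, MYF5, CHRNA1, CHRND and MUSK. VFLP (au) against injury alone had 0 members and 0% of genes called, with differences of −1.55 to −0.23. The fibre list had a median of −0.56 there and all genes 0.01. At an unadjusted p under 0.05 there were 0 members (12.9% of genes), and 0 by DESeq2 (1.1%).

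The materials were then compared with each other, all injected animals being of batch D. VFLP (man) against Col1 had 0 members and 0% of genes called by edgeR. At an unadjusted p under 0.05 there were 6 and 10.3% of all genes, and DESeq2 called 2.18% of all genes and 3 members: MSTN lower (edgeR log2 difference −2.34, SE 0.714), CHRND higher (3.16, SE 0.986) and MUSK higher (3.59, SE 1.16). VFLP (au) against Col1 had 0 members and 0% called, with all 10 members above 0 (0.59 to 2.58). The fibre list had a median of 0.72 there and all genes 0.03. At an unadjusted p under 0.05 there were 2 members (4.65% of genes), and 0 by DESeq2 (0.196%). Between VFLP (man) and VFLP (au), 0 members and 0.0505% of genes were called, with 3 members at an unadjusted p under 0.05 (8.36% of genes) and 2, MSTN and MYF6, by DESeq2 (2.2%). MSTN (log2 difference −3.43, SE 0.739, adjusted p = 0.0849) was called when animal 2 of either hydrogel was left out. Of all genes, 139 of 18149 were called without VFLP (man) animal 2 and 107 of 18192 without VFLP (au) animal 2. The intervals around these differences are wide, and a value past no threshold does not show that the materials act alike.

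Since fibre RNA moved with the groups, each gene was also set against the mean log2 level of the 26 fibre genes in the same animal, as a description with no test. That mean was 10.3 in controls, 8.15 after injury alone, 6.65 with Col1, 5.02 with VFLP (man) and 7.34 with VFLP (au). By construction, a gene whose CPM does not differ from control moves up on this scale by 2.18, 3.67, 5.31 and 2.98 in those 4 groups. MYF6 stayed with the fibre genes: its differences from the control mean were −0.26, 0.11, 0.22 and 0.17, overlapping the controls in all 4 groups. MSTN was below the controls without overlap in all of them, with differences of −0.92, −1.04, −2.06 and −0.88.

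The other genes overlapped the controls or lay above them on this scale. MEF2C was above the controls in all 4 groups, by 0.29, 0.90, 1.85 and 0.93. MYOG overlapped the controls in 3 groups and was above them by 1.42 with VFLP (man). PAX7 was above them by 0.74 after injury alone, 1.69 with VFLP (man) and 0.45 with VFLP (au). MYOD1 was above them in the same 3 groups, by 1.00, 2.90 and 1.10, while MYF5 was so with VFLP (man) alone, by 2.48.

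In the groups other than Col1, the members furthest above the controls were CHRND and MUSK. CHRND was above the controls by 2.37 after injury alone, 5.06 with VFLP (man) and 2.13 with VFLP (au), and MUSK by 2.73, 4.61 and 2.35. CHRNA1 was above them by 1.47 after injury alone and 3.48 with VFLP (man). With Col1, CHRNA1, CHRND and MUSK overlapped the controls on this scale (0.05, 0.37 and 0.30). MUSK had 13, 10 and 0 reads in the Col1 animals, and CHRND 6 reads in animal 3. Values from so few reads depend on the prior count of 2 added before the logarithm.

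**Figure D2:**
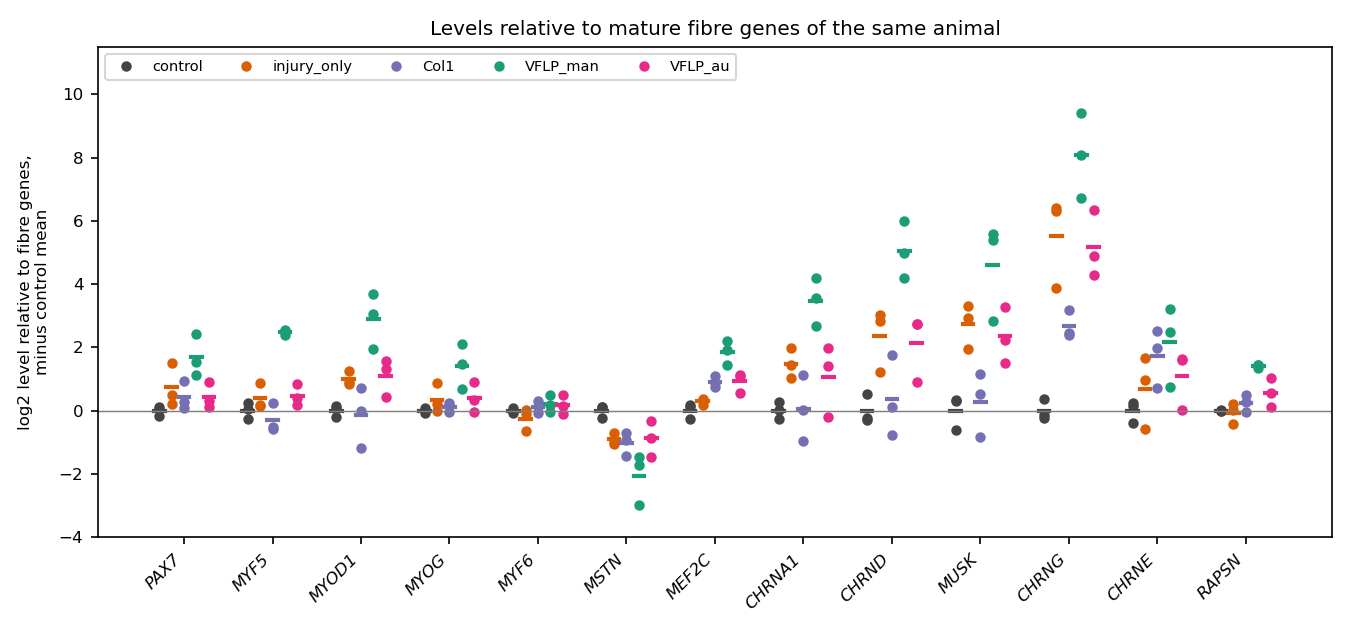
Log2 level of each gene minus the mean log2 level of 26 fibre genes in the same animal, with the control mean set to 0. Points are animals and bars group means; MYF6 stays near 0, MSTN lies below 0, and CHRND, MUSK and CHRNG lie furthest above 0 in VFLP (man).

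The other genes of the pathway came from 5 lists without the 10 members. After injury alone, 8.33% of all genes were called higher and 13.7% lower, against which each list's counts are to be read. Receptors and their partners at the junction were 12 tested genes, of which 2 were higher and 3 lower after injury alone (median −0.48). CHRNG, the gamma subunit of the embryonic receptor, rose: control animals had 0.207, 0.502 and 0.542 CPM, and injury only animals 0.737, 8.51 and 12.1. All injury only animals were above all controls, with animal 1 close to them, and the log2 difference was 4.13 (SE 1.12, adjusted p = 0.0221). VFLP (man) animals had 0.398, 6.67 and 7.96 CPM, VFLP (au) animals 1.61, 2.71 and 1.54, and Col1 animals 0.151, 0.433 and 0.0607.

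CHRNE, the epsilon subunit that replaces gamma in the adult receptor, was at 4.94, 7.99 and 8.51 CPM in controls and 2.75, 3.49 and 1.53 after injury alone. These did not overlap, and the log2 difference of −1.13 (SE 0.433) had an adjusted p of 0.0799. RAPSN, which anchors the receptor, fell by 1.99 on the log2 scale (adjusted p = 0.0374), from 20.9, 49.6 and 34.0 CPM in controls to 2.99, 9.60 and 11.1. The muscle sodium channel gene SCN4A fell by 2.04, and LRP4, the agrin receptor that acts with MUSK, by 0.73. ERBB2, a neuregulin receptor that epithelia also express, was higher by 0.55. CHRNG was called in only 2 of the 6 fits that left out an animal (adjusted p 0.0205 to 0.0781). RAPSN and SCN4A were each called in 1 of these fits (adjusted p up to 0.132 and 0.107). ERBB2 was called in 2 and LRP4 in 3 (up to 0.157 and 0.109).

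Of 16 tested satellite cell, activation and fusion genes, 3 were higher and 2 lower after injury alone (median −0.90), the lower ones a share near that of all genes. EYA2 and HES6, regulators that other cell types also express, were higher by 1.36 and 1.10, and TEAD4 and the BMP antagonist CHRDL2 were lower (−1.06 and −2.23). MYMX, which encodes the small membrane protein of myoblast fusion, had 1 read in the 3 controls together and 58 in the injury only animals. Injury only animals 1, 2 and 3 had 3, 25 and 30 of these reads. The pooled reads give a ratio of 58 per read counted to genes, without TMM scaling (95% exact interval 10 to 2330, counting error only). That interval leaves out the spread between animals. The TMM-scaled fit gave an adjusted p of 0.0227 with a log2 difference of 5.21, which depends on the prior count. MYMX was called in 3 of the 6 fits that left out an animal (adjusted p 0.0294 to 0.0729). Its partner in fusion, MYMK, was not analysed here.

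Of 12 tested MEF2 relatives, partners and targets, 7 were lower after injury alone and none higher (median −1.08). MEF2A (−0.98) and MEF2D (−1.34), the relatives of MEF2C, were lower, as was HDAC9, which represses MEF2 factors (−1.06). The fibre genes SMYD1 (−2.37), SRL (−2.20) and KLHL31 (−2.16) were lower too.

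Of 18 tested genes of the myostatin pathway, none was higher and 3 were lower after injury alone (median −0.22), a share near the 13.7% of all genes. The ubiquitin ligase genes of muscle atrophy, FBXO32 and TRIM63, fell by 1.51 and 2.07, and FSTL1, a follistatin-like gene that fibroblasts express, by 0.84. FST, the binding protein that blocks myostatin, was at 17.4, 8.45 and 8.99 CPM in controls and 5.45, 9.15 and 6.08 after injury alone (log2 difference −0.73, SE 0.447, adjusted p = 0.258).

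Of 14 tested genes of regenerating or denervated fibres, 2 were higher and 4 lower after injury alone (median 0.36). CHRNG, described above, is one of the higher genes here too. ANKRD1, a stress-induced protein of the sarcomere, had 0.558, 0.365 and 0.114 CPM in controls and 2.33, 68.0 and 96.4 after injury alone, and rose by 7.28 on the log2 scale (SE 1.71, adjusted p = 0.0117). The lower genes included ACTC1 (−2.56), HSPB7 (−1.85) and CSRP3 (−1.72), and SLN (−2.32) was lower as well. The embryonic and perinatal myosin genes MYH3 (1.39, SE 0.768, adjusted p = 0.211) and MYH8 (0.74, SE 1.05, adjusted p = 0.653) did not pass. Of the 24 list genes named as called in this comparison, between 9 (without control animal 2) and 20 (without control animal 1) stayed called when 1 animal was left out. Over all genes, 1733 of 18180 were called without control animal 2 and 4286 of 18179 without control animal 1. None was called in the left folds alone, and 6 were called with the fibre level as a covariate. Of these, CHRNG, MYMX, ANKRD1 and EYA2 were still higher, and MEF2A (−0.66) and FSTL1 (−0.99) still lower.

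In 4 libraries CHRND, MUSK and CHRNG stood above all others; these libraries were picked out after their values were seen and enter no test as a group. They are the left fold of injury only animal 2, the right fold of injury only animal 3, and the right folds of VFLP (man) animals 2 and 3. CHRND was at 22.7, 24.6, 20.1 and 22.0 CPM in them, and at most 12.9 in any other library. CHRNA1 was at 22.4, 20.8, 16.3 and 13.7 CPM, within the 4.1 to 25.9 of the control folds. MUSK was at 7.52, 6.48, 6.96 and 4.32 CPM, against at most 2.66 elsewhere. CHRNG was at 16.1, 21.3, 12.2 and 16.6 CPM, against at most 6.33 elsewhere, and ANKRD1 at 128, 170, 108 and 129 CPM, against at most 32.3. The adult subunit gene CHRNE was at 5.03, 1.49, 0.982 and 1.53 CPM in them and at 3.25 to 13.7 in control folds; 5.03 was the highest of the 24 libraries of injured animals, and 0.982 and 1.53 were the highest of VFLP (man).

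The opposite folds of the same animals were low. In injury only animal 2, CHRND was at 22.7 CPM on the left and 1.88 on the right. In animal 3 it was at 2.14 CPM on the left and 24.6 on the right. VFLP (man) animals 2 and 3 had 0.515 and 0.119 CPM on the left. Fibre RNA was also higher on the side with more CHRND: the summed level was 27700 against 11200 CPM in injury only animal 2, 31500 against 13500 in animal 3, 8240 against 314 in VFLP (man) animal 2, and 4440 against 76.2 in animal 3. The 6 control folds had summed fibre levels of 16100 to 159000 CPM and CHRND at 1.12 to 12.9 CPM. The part of fibre content in the CHRND values was not tested.

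**Figure D3:**
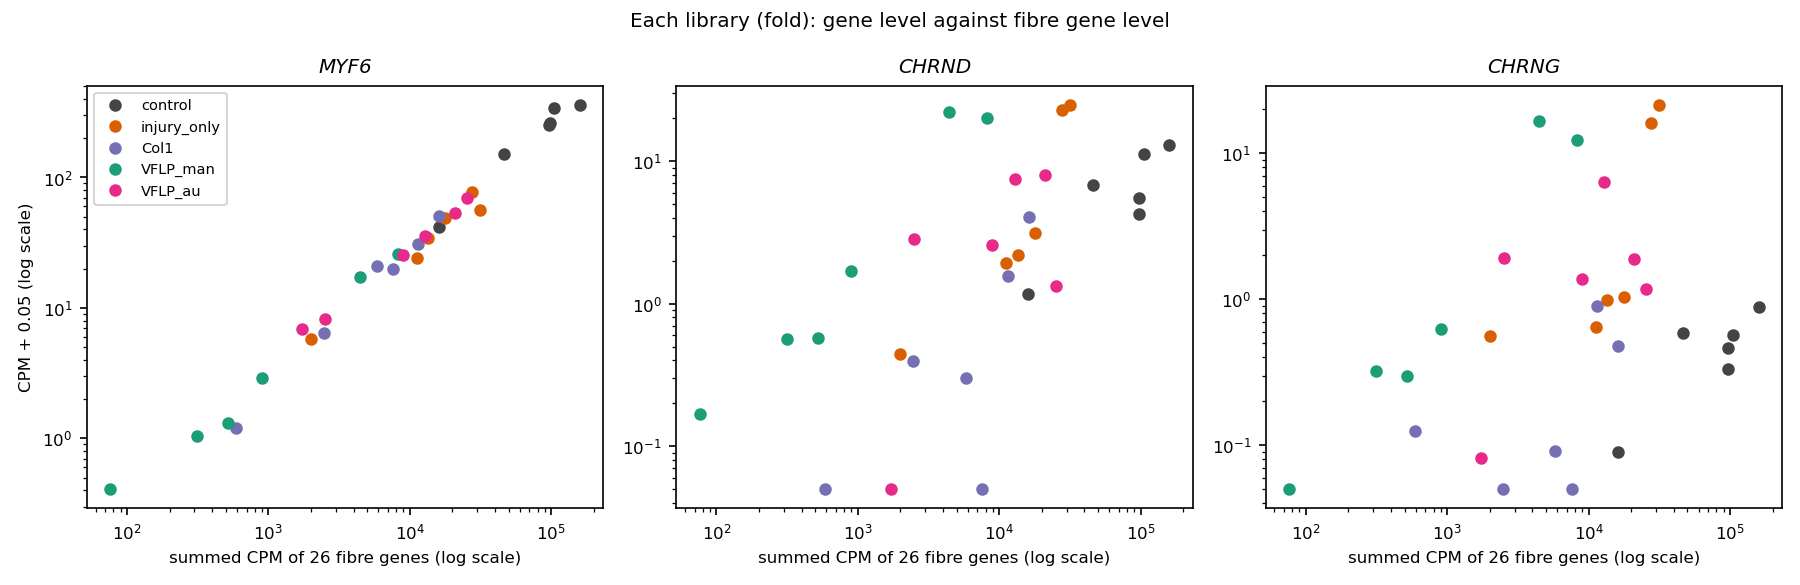
Level of MYF6, CHRND and CHRNG (CPM plus 0.05, log scale) in each of the 30 libraries against the summed CPM of 26 fibre genes in that library (log scale). MYF6 lies along one line through all groups, while 2 injury only and 2 VFLP (man) libraries lie above all others for CHRND and CHRNG.

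Right and left folds were compared within animals in the 14 animals whose folds shared a batch (28 libraries). All 10 members were higher on the right, by 0.67 (PAX7) to 1.79 (MYF5) on the log2 scale. The 26 fibre genes had a median of 1.16 and all genes −0.01. The test called 0 members (adjusted p 0.56 to 0.662) and 0% of 15301 genes. At an unadjusted p under 0.05 there were 2 members (8.6% of genes), and 0 by DESeq2 (0.0915%). Over all 3 animals of each group, the right fold was higher in 3 of 3 with VFLP (man) for all 10 genes, and in 3 of 3 controls for all but MYF5 (2 of 3). With VFLP (au) it was higher in 3 of 3 for all but CHRNA1 and CHRND (2 of 3), after injury alone in 1 of 3 for every gene, and with Col1 in 0 of 3 for all but MYF5 (2 of 3). The 10 genes share these animals and are not independent.

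Whether the right-left difference differed between groups was tested in a fit chosen after the pattern was seen. It did for MYOG (adjusted p = 0.0443) and MEF2C (0.0434), 2 of 10 members, where 9.63% of all genes were called. MYOG was higher on the right by 1.32 in control, 4.65 with VFLP (man) and 1.73 with VFLP (au), and had differences of −0.38 in injury only (2 animals) and −2.09 in Col1. MEF2C differed by 1.40, 0.03, −1.78, 2.35 and 1.86 in the order control, injury only, Col1, VFLP (man), VFLP (au). MYF6 (adjusted p = 0.0526) and PAX7 (0.06) did not pass, with differences in Col1 of −2.57 and −2.11 and in VFLP (man) of 3.82 and 1.39. The 26 fibre genes had like medians, 1.48, −0.07, −2.37, 3.84 and 2.46 in the same order, with 2 called.

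**Figure D4:**
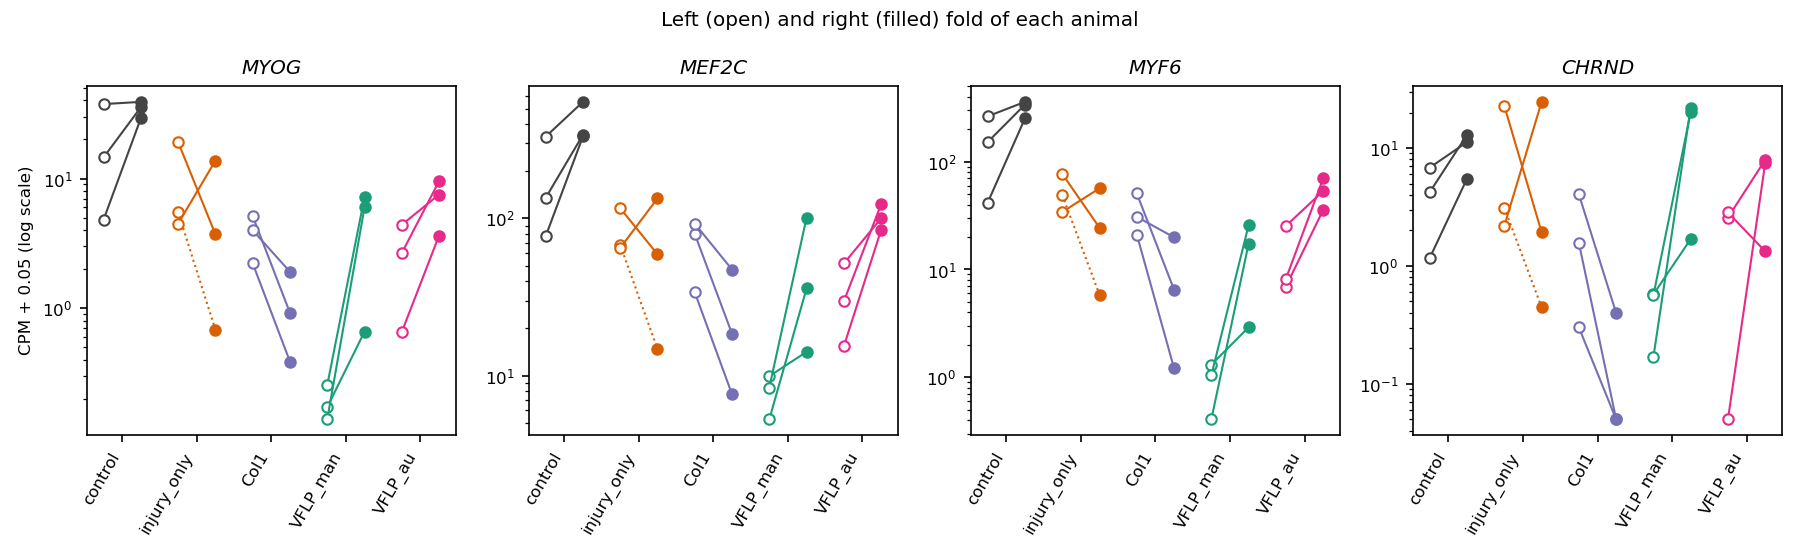
Level (CPM plus 0.05, log scale) of MYOG, MEF2C, MYF6 and CHRND in the left (open) and right (filled) fold of each animal, joined by a line; the dotted line joins folds of different batches. All control and VFLP (man) lines rise to the right, and all Col1 lines fall.

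The genes most like each member were found by the correlation of log2 CPM over the 15 animals after each group's mean was subtracted, among 12286 genes; the animals share batches and fibre content, and no test was made. MYF6 was most like SLCO5A1 (r = 0.985), SCN4A (0.984) and DUSP13 (0.983). LDB3 (0.985) and CACNG1 (0.982) were among the genes most like MEF2C. MYOG was most like KLHL40 (0.978), MYADML2 (0.978) and PKNOX2 (0.976), and MYOD1 like DES (0.971), TMOD1 (0.964) and CLTCL1 (0.961). MYF5 followed MSRB3 (0.966), SGCA (0.964) and POPDC2 (0.961), and MSTN followed FBXO40 (0.956), NT5C1A (0.956) and DGKD (0.952).

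CHRND was nearest to CHRNA1 (0.939), MUSK (0.922) and IP6K3 (0.913), and CHRNA1 to CHRND, CACNB2 (0.919) and MUSK (0.911). MUSK was nearest to TCEAL7 (0.962), PDLIM3 (0.942) and ANKRD23 (0.929). PAX7 had its nearest in FHOD1 (0.937), MBNL2 (0.909) and SNAI3 (0.906).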

How the data were processed

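The deposited tables hold raw counts of reads per gene, made by the authors with STAR 2.7.10b per the submitters' processing notes, which name neither a build nor an annotation. Per the labels, the library kit was KAPA mRNA HyperPrep; the counts of the stranded column for the second read were used. The 4 rows that name no gene were left out. Folds of an animal were summed, except that injury only animal 1, whose folds are of different batches, entered fits with a batch term as 2 units. That fit served injury only against control and the materials among themselves; materials against control and against injury only had no batch term. Tests were edgeR 4.0.16 quasi-likelihood tests in R 4.3.3 (TMM, filterByExpr with a minimum count of 10, Benjamini-Hochberg over all genes, threshold 0.05), tested on simulated data, with DESeq2 1.42.0 as an alternative. SE is the absolute log2 difference over the root of F. Levels relative to fibre genes used log2 CPM with a prior count of 2. The members and lists were chosen with earlier results of these data known. All members were named, with up to 6 called genes per list and comparison, and CHRNG, CHRNE, RAPSN, FST, MYH3 and MYH8 whatever their result; MYMK, also in that rule, was not analysed here. The 3 animals of a group are separate animals. Folds of one animal differed far beyond counting noise. RefSeq served for names and neighbours alone. A gene that the likeness rule would name is not reported here.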

Additional observations from a re-analysis of the deposited data

Results flagged for a closer look

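In sets of 6 folds, 4 of 50 member and group sets had a fold whose gap to the nearest other fold was large for the set's whole range. The limit was that of Dixon's test on CPM, without logs. Its usual rate of about 1 in 20 by chance is for independent values. These 6 folds come from 3 animals, so that rate does not apply and the flags are a description. They were MSTN in the right fold of VFLP (man) animal 2 (2.58 CPM), MSTN in the right fold of VFLP (au) animal 3 (25.6 CPM), MEF2C in the right fold of VFLP (man) animal 2 (101 CPM) and CHRNA1 in the left fold of Col1 animal 1 (6.49 CPM). The summed fibre level was the highest of its group in each of these libraries, at 8240, 25300, 8240 and 16200 CPM, and its part in the high values was not tested.

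The right-left difference of MYOG (adjusted p = 0.0443) and of MEF2C (adjusted p = 0.0434) differed between the groups in edgeR's quasi-likelihood test over all genes, in a fit chosen after the right-left pattern was seen, so that the test restates that pattern; 9.63% of all genes were called in it. In all 3 control and all 3 VFLP (man) animals the right fold was higher for both genes, and in all 3 Col1 animals the left.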

How the results depend on the processing

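With the mean fibre level as a covariate, 0 members were called against control in any group and 0 in VFLP (man) against injury only, and differences that had been below 0 came out above it. The differences listed here are not all that turned. For injury only against control they included MYF5 0.40, MYOD1 1.88, MYOG 0.85, MEF2C 0.082, CHRNA1 1.39 and RAPSN 0.031. For Col1 against control they included CHRNA1 0.21, MEF2C 0.57, MYOG 1.01, MYOD1 1.35 and CHRND 2.00. For VFLP (man) against control they included MYF5 2.58, MEF2C 1.38 and MYOG 2.78. For VFLP (au) against control they included MYF6 0.034, MYF5 0.55, MEF2C 0.67 and MYOG 1.18. For VFLP (man) against injury only they included MYF6 0.31. The fit with this covariate called 1 member, MYF5, in VFLP (man) against Col1 (10 of 17815 genes). With a batch term that rests on 1 library, no member was called for Col1, VFLP (man) or VFLP (au) against control (0 each) or for VFLP (man) against injury only (0). Values that turned against control included those for Col1 (CHRNA1 1.60, MYOG 0.22, CHRND 1.73) and VFLP (man) (MYF5 0.016, MYOG 0.36). They also included those for VFLP (au) (MYF6 0.28, MYF5 0.12, MEF2C 0.47, MYOG 1.31). In VFLP (man) against injury only they included MYF6 (0.55) and SMYD1 (0.24). Calls over all genes are given in brackets after the member counts that follow. DESeq2 called 5 members in injury only against control (5488 of 17815 genes). It called 5 in Col1 (369 of 17770) and 3 in VFLP (man) (1256 of 17770) against injury only. It called 3 in VFLP (man) against Col1 (389 of 17815) and 2 between the hydrogels (392 of 17815). Left folds alone gave 0 members for injury only (CHRNA1 at 0.20, 0 of 16601 genes) and 0 for Col1 against control (18 of 16601). They gave 7 for VFLP (man) against injury only (711 of 16601) and 4 for VFLP (man) against Col1 (327 of 16601). Right folds alone gave 0 for injury only (4348 of 16576) and 2 for VFLP (au) against control (5710 of 16576). They gave 0 for VFLP (man) against injury only (0 of 16576). Leaving out 1 animal gave 0 to 3 members for injury only against control (1733 to 4286 genes) and 3 to 6 for VFLP (au) against control (2528 to 5549 genes). It gave 0 to 2 for VFLP (man) against injury only (0 to 300 genes) and 0 to 1 between the hydrogels (0 to 139 genes). Without the injury only library of batch D, an alternative chosen after seeing the data, VFLP (man) against injury only had 3 members called (463 of 17748 genes). Why calls and values changed between these fits was not tested. Animals of the same number in different groups did not deviate together (median r −0.03 over 30 pairs, 8 over 0.1). With the replicate number as a block, 3 members were called in injury only against control (3305 of 17815 genes). Against control, 8 were called in Col1 (5293 of 17770), 6 in VFLP (man) (6190 of 17770) and 5 in VFLP (au) (4465 of 17770). In VFLP (man) against injury only 0 were called (168 of 17770). Depth limits MUSK, MYF5 and PAX7 in Col1, with 23, 28 and 78 reads in the group.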
